A study of Mus musculus with 22 samples.

Results

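The proteasome genes were followed across 22 libraries of mouse hypothalamus. Members were all protein-coding rows of the deposited expression table whose symbol begins with Psma, Psmb, Psmc, Psmd, Psme, Psmf or Psmg and a number. This rule found 47 rows of 17440 in all, or of 13711 protein-coding rows, and used no measured value. The 47 rows stand for 46 gene identifiers, because Psmd5 has 2 rows. They comprise 31 subunits of the core and regulatory particles, 3 immunoproteasome subunits, 5 activators or inhibitors and 7 rows of assembly chaperones. The remaining row, Psmc3ip, shares the prefix but encodes a recombination cofactor that is no proteasome subunit.

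The tissue was the arcuate nucleus with the median eminence. Ribosomes carrying ribosomal protein S6 phosphorylated at serines 244 and 247 were immunoprecipitated (phosphoTRAP), which gave an IP library, and a portion of the same homogenate without antibody gave the input library. IP libraries came from 4 MCH-hM3Dq mice (numbered 1, 3, 4 and 5) and 7 control mice (numbered 1 to 7), and input libraries from the same 11 mice. hM3Dq is a designer receptor that excites neurons when clozapine N-oxide (CNO) binds it, and MCH is melanin-concentrating hormone, a peptide of lateral hypothalamic neurons. Mice of both genotypes were C57BL/6N, 10 to 13 weeks old, fasted for 12 h and given CNO for 1 h, so the controls also received the fast and the ligand. The labels give the genotype only as MCH-hM3Dq and do not describe how the receptor was delivered. The series' design lists 5 hM3Dq mice, of which 4 were analysed here.

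The proteasome is the protease that degrades proteins tagged with ubiquitin chains. Its barrel-shaped core is built of alpha subunits, which gate the entry, and beta subunits, some of which cut the substrate inside. A regulatory particle at the end of the barrel binds the ubiquitin chain, removes it and unfolds the substrate with a ring of ATPases. In neurons this system is known to turn over proteins at synapses as well as in the cell body, and blocking it alters synaptic plasticity.

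The promoter of Psmd14 is shown because Psmd14, the ubiquitin-removing enzyme of the regulatory particle, was the member called between IP and input in both genotypes. Sequences and starts are RefSeq's (GRCm38.p6), and 39 of the 46 genes matched its promoter table with 42 windows of 250 bases before the start. The Psmd14 window is chr2:61711444-61711693 on the plus strand, with an inverted CCAAT box in capitals that ends 154 bases before the start.
Psmd14: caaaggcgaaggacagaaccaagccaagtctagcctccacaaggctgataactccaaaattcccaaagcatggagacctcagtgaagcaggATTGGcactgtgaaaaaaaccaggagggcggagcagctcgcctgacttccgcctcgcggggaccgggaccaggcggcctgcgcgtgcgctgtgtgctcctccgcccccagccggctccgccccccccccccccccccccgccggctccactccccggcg
Stretches of 60 bases from 3 further members are shown because they hold TGACNNNGC, the core of the element that the proteasome gene activators Nfe2l1 and Nfe2l2 are known to bind, in capitals. They lie at chr14:54617996-54618055 on the minus strand (Psmb5), chr11:70525297-70525356 on the plus strand (Psmb6) and chr5:123228130-123228189 on the plus strand (Psmd9).
Psmb5: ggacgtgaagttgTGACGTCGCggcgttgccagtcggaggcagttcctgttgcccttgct
Psmb6: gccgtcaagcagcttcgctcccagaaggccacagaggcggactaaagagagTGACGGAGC
Psmd9: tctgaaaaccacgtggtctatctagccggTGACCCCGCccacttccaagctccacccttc
Searched on both strands, TGACNNNGC was in 11.9% of the 42 member windows and in 10.2% of all 32851 promoter windows. It was found in 5 members, of which Psmc6 and Psmd12 are not shown. CCAAT was in 33.3% of member windows and 33.8% of all windows. The palindromic motif of nuclear respiratory factor 1 was in 2.38% of member windows (Psma2) and 0.782% of all windows. The shares of the first 2 motifs lay near those of all windows.

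Relative sequencing depth, estimated from the spacing of low values, ran from 0.708 to 1.25 over the libraries, and the number of reads is unknown. Libraries listed between 280 and 1895 genes at 0, and the highest numbers were in control input 1 (1895), control input 6 (1579) and control IP 5 (1515). Neuronal genes (7 measured) summed to 5964 to 10420.4 FPKM in hM3Dq IP, 5439 to 8335 FPKM in control IP, 4808 to 6554 FPKM in hM3Dq input and 4249 to 5775 FPKM in control input. Genes listed for arcuate neurons summed to 64.1 FPKM or more in every library, and those listed for the lateral hypothalamus to 48.4 FPKM or more. These sums do not show that each listed gene was present in every library. In such bulk tissue, fewer cells of a type and less RNA per cell cannot be told apart.

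All 31 core and regulatory subunits were measured well above 1 FPKM (fragments scaled to transcript length and library size, as normalized by the authors) in every library. Their mean levels over the 22 libraries had a median of 86.3 FPKM, against 5.23 FPKM over all rows. They spanned a 7.60-fold range, with Psmd3, a scaffold subunit of the regulatory lid, lowest at 22.8 FPKM and Psmb4, a beta subunit without protease activity, highest at 174 FPKM. The lowest single value of any of the 31 subunits was 14.4 FPKM. Alpha subunits ran between 60.5 FPKM (Psma1) and 163 FPKM (Psma6), and beta subunits between 34.7 FPKM (Psmb3) and 174 FPKM (Psmb4). The 6 ATPases lay between 44.6 FPKM (Psmc4) and 159.6 FPKM (Psmc5), and the 11 other regulatory subunits between 22.8 FPKM (Psmd3) and 113 FPKM (Psmd4, a ubiquitin receptor). Across the 7 control inputs the coefficient of variation of a subunit was 9.56% for Psma6 at the lowest, 17.5% at the median and 35.8% for Psmd4 at the highest. In the order of control input levels, 26 of 30 pairs of neighbouring subunits differed by less than the smaller SD of the pair.

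**Figure D1:**
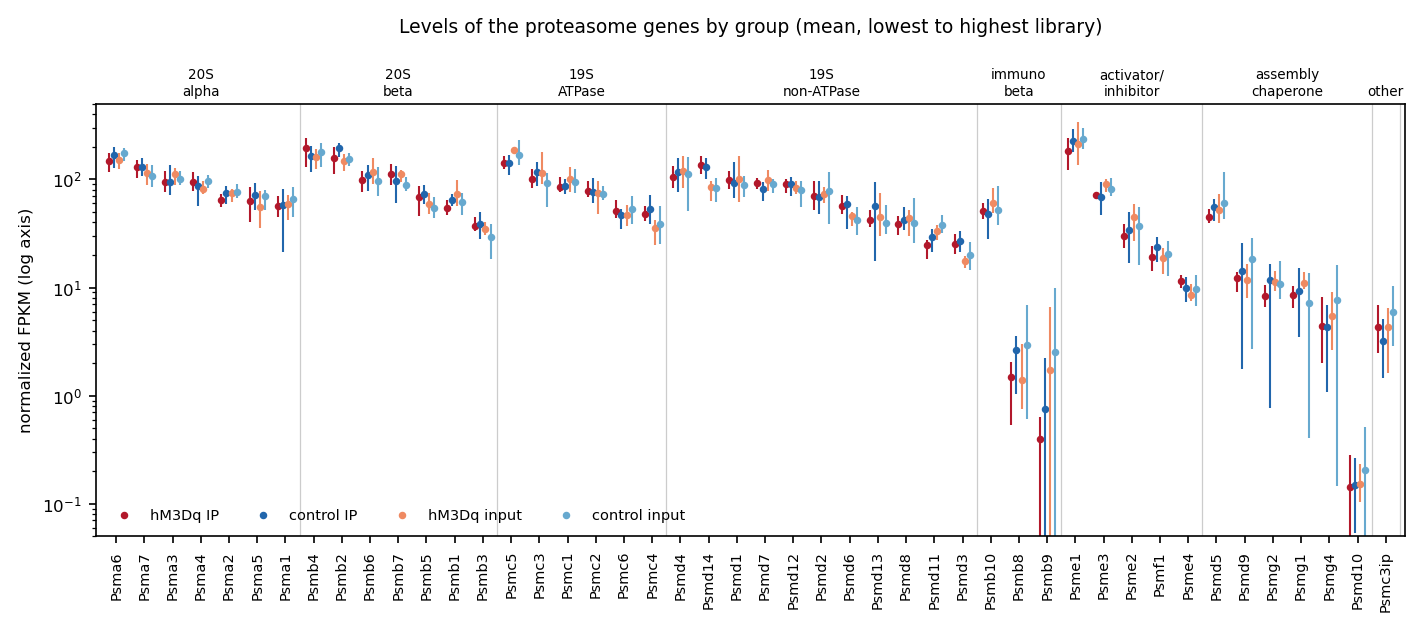
Normalized FPKM (log axis) of 46 proteasome genes grouped by role; points are means and lines run between the lowest and highest library of hM3Dq IP (n = 4), control IP (n = 7), hM3Dq input (n = 4) and control input (n = 7). The core and regulatory subunits lie between 14.4 and 241.6 FPKM in every library, while Psmb8, Psmb9 and Psmd10 lie far below them and lines that reach the lower edge include values under 0.05 or listed at 0.

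The 3 catalytic beta subunits were well expressed in every library. Psmb5, which carries the chymotrypsin-like site, had 45.8, 66.5, 77.9 and 87.0 FPKM in the IP of hM3Dq mice 1, 3, 4 and 5, and 59.4, 72.8 and 89.6 FPKM as the lowest, median and highest control IP. Its inputs had 61.2, 47.6, 51.5 and 75.3 FPKM in hM3Dq mice and 43.9, 51.0 and 69.0 FPKM as the lowest, median and highest in control mice. All 4 groups of Psmb5 overlap, and hM3Dq IP 1 is the lowest hM3Dq IP by a wide margin. Psmb6, the caspase-like subunit, had 101, 76.7, 119.7 and 102 FPKM in hM3Dq IP and 78.0, 105 and 136 FPKM as the lowest, median and highest control IP. In the inputs Psmb6 had 159, 89.8, 91.8 and 123 FPKM in hM3Dq mice and 69.9, 94.0 and 129 FPKM at the lowest, median and highest in control mice. The groups overlap, with hM3Dq input 1 above every other library. Psmb7, the trypsin-like subunit, had 107, 88.9, 116 and 140.0 FPKM in hM3Dq IP and 60.5, 99.6 and 132 FPKM at the lowest, median and highest in control IP. Its inputs had 123, 94.2, 119 and 116 FPKM in hM3Dq mice, against 78.9, 85.0 and 105 FPKM at the lowest, median and highest in control mice. Of the 4 hM3Dq inputs of Psmb7, 3 lie above every control input and hM3Dq input 3 lies within their range.

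Interferon induces counterparts that replace these catalytic subunits in the immunoproteasome of immune cells, and the 3 counterparts differed widely in level. Psmb10, the counterpart of Psmb7, had 51.9, 47.7, 42.6 and 60.9 FPKM in hM3Dq IP and 28.1, 49.7 and 65.3 FPKM as the lowest, median and highest control IP. In the inputs it had 83.3, 53.7, 48.8 and 55.6 FPKM in hM3Dq mice, against 37.6, 45.8 and 87.7 FPKM at the lowest, median and highest in control mice. Psmb10 lay within the range of the 31 subunits in 21 of 22 libraries. Psmb8, the counterpart of Psmb5, had 1.88, 2.06, 1.53 and 0.530 FPKM in hM3Dq IP and 1.03, 3.10 and 3.53 FPKM at the lowest, median and highest in control IP. The Psmb8 inputs had 0.759, 3.01, 0.975 and 0.788 FPKM in hM3Dq mice and 0.614, 1.32 and 6.91 FPKM at the lowest, median and highest in control mice. All 4 groups overlap, and the highest library was control input 7. Exons of Psmb8 overlap the antisense gene Gm20496. Psmb9, the counterpart of Psmb6, had 0.397, 0.542, 0.639 and 0 FPKM in hM3Dq IP and 0, 0.362 and 2.21 FPKM at the lowest, median and highest in control IP. Its inputs had 6.56, 0.404, 0 and 0 FPKM in hM3Dq mice and 0, 1.54 and 9.89 FPKM at the lowest, median and highest in control mice. Psmb9 was listed at 0 in 6 of the 22 libraries and stood apart in input 1 of both genotypes. Exons of Psmb9 overlap those of Tap1 on the opposite strand, and without knowledge of strand their reads cannot be told apart. Microglial genes (8 measured) summed to 40.0 to 81.8 FPKM in hM3Dq IP, 20.9 to 100.04 FPKM in control IP, 45.1 to 81.5 FPKM in hM3Dq input and 54.1 to 131 FPKM in control input. Their part in the immunoproteasome levels was not tested.

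The balance of immunoproteasome and constitutive subunits was compared between genotypes as a log2 ratio within each library, with 1 FPKM added to both genes. The addition moves the ratios of the low genes Psmb8 and Psmb9 toward 0 and understates their differences between libraries. The log2 ratio of Psmb8 over Psmb5 averaged -4.82 ± 0.782 in hM3Dq IP and -4.41 ± 0.478 in control IP (SD over 4 and 7 mice), and -4.72 ± 0.799 in hM3Dq input and -4.08 ± 0.903 in control input. That of Psmb10 over Psmb7 was -1.13 ± 0.232 in hM3Dq IP and -0.99 ± 0.616 in control IP. With Psmb9 over Psmb6 and the activator ratio of Psme1 over Psme3, 4 ratios in IP and in input gave 8 tests. The 2-sided exact permutation p over 330 regroupings lay between 0.173 and 0.736, or between 0.588 and 0.736 after Benjamini-Hochberg adjustment, where 0.00303 is the smallest possible. No ratio had an adjusted p under 0.05 in this permutation test. With 4 against 7 mice, that does not show that the ratios are alike.

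Among the activators, Psme1 and Psme2 form the PA28 cap that opens the core without ATP, Psme3 forms its nuclear relative, Psme4 is the large cap PA200, and Psmf1 is the inhibitor PI31. Psme1 was the most highly expressed member, with 242, 122, 212 and 152 FPKM in hM3Dq IP and 179, 218 and 294 FPKM as the lowest, median and highest control IP. In its inputs Psme1 had 341, 136, 189 and 188 FPKM in hM3Dq mice and 189.6, 218 and 297 FPKM at the lowest, median and highest in control mice. Its groups overlap, and hM3Dq mouse 3 was the lowest hM3Dq mouse in IP and in input. Over the 22 libraries Psme2 averaged 36.4 FPKM, Psme3 77.3 FPKM, Psmf1 20.8 FPKM and Psme4 9.86 FPKM. Exons of Psme1 overlap the opposite-strand gene Emc9.

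Assembly chaperones, which build the complex but leave it when it is complete, had lower mean levels over the 22 libraries than every one of the 31 subunits, apart from Psmd5. Psmd5, a chaperone of the ATPase ring, averaged 54.6 FPKM in its main row, and its second row averaged 0.311 FPKM. Psmd9, another such chaperone, had 12.1, 13.9, 13.7 and 9.13 FPKM in hM3Dq IP and 1.76, 14.5 and 25.9 FPKM as the lowest, median and highest control IP. In the inputs Psmd9 had 8.01, 10.2, 12.7 and 16.4 FPKM in hM3Dq mice and 2.70, 21.7 and 28.5 FPKM at the lowest, median and highest in control mice. The lows of 1.76 FPKM in control IP 5 and 2.70 FPKM in control input 6 fall in libraries with many genes at 0. Control input 1, with the most genes at 0, had 23.0 FPKM of Psmd9, and the cause of the lows was not tested. Exons of Psmd9 overlap the noncoding gene Gm26745 on the opposite strand. Psmg1, which with Psmg2 assembles the alpha ring, had 6.40, 9.09, 10.3 and 8.54 FPKM in hM3Dq IP and 3.48, 9.04 and 15.3 FPKM at the lowest, median and highest in control IP. Its inputs had 13.8, 10.4, 9.99 and 9.67 FPKM in hM3Dq mice and 0.404, 4.83 and 13.7 FPKM at the lowest, median and highest in control mice. Of the hM3Dq inputs of Psmg1, input 1 lies above every control input and the other 3 lie within the wide control range, whose lowest library is control input 1. Psmg2 averaged 10.7 FPKM, Psmg4 5.59 FPKM, and Psmd10, also known as gankyrin, 0.165 FPKM.

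Enrichment on phosphorylated ribosomes was measured as IP against input within each mouse, on the log2(FPKM + 1) scale, which understates changes of low genes. In hM3Dq mice 1 member rose and 1 fell of 44 tested, where limma called 10.3% of 12987 genes at an adjusted p under 0.05 (5.41% higher and 4.9% lower in IP). In control mice 1 member rose and none fell of 45 tested, where 4.84% of 13999 genes were called (2.23% higher and 2.61% lower). Among the members, 9 of 44 in hM3Dq mice were under 0.05 before adjustment, against 26.1% of all genes, and 11 of 45 were in control mice, against 19.5% of all genes. The median log2 fold change of the members was -0.02 in hM3Dq mice and 0.02 in control mice, and that of all genes tested was 0.03 in both. The quartiles of the members were -0.21 and 0.12 in hM3Dq mice, against -0.26 and 0.32 over all genes. In control mice they were -0.15 and 0.22, against -0.24 and 0.31 over all genes. A row was tested where 4 or more of the libraries compared reached 1 FPKM. Psmd10 and the second Psmd5 row passed this in neither genotype, and Psmb9 passed it in control mice only.

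**Figure D2:**
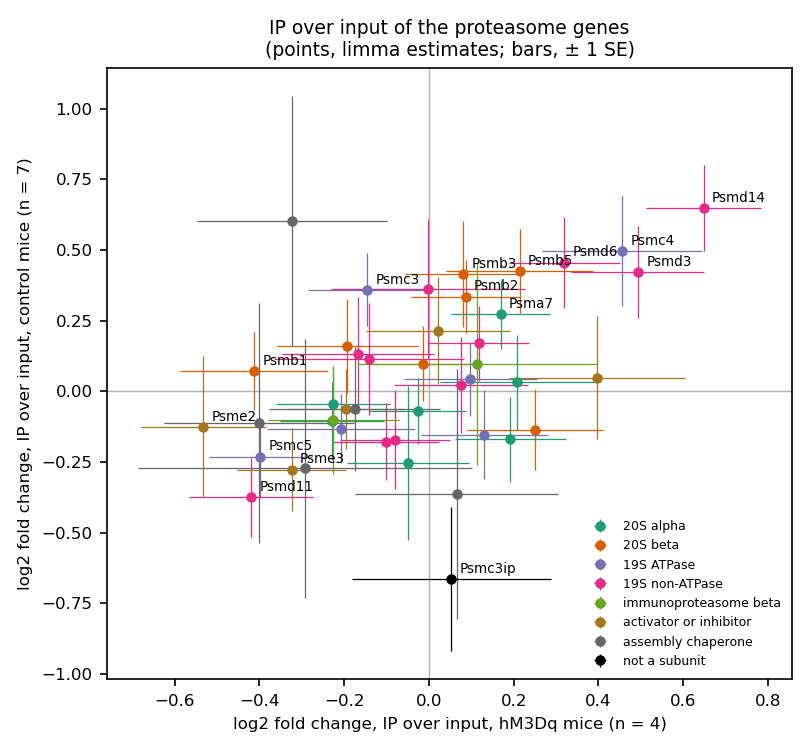
Log2 fold change of IP over input in hM3Dq mice (horizontal axis, n = 4 mice) against that in control mice (vertical axis, n = 7 mice) for the 44 members tested in both, with bars of 1 SE and colours by role; names mark members with an unadjusted p under 0.05 in either genotype. Psmd14 lies farthest to the upper right, at 0.65 in both genotypes. Others in that quadrant include Psmc4 (0.46 in hM3Dq and 0.50 in control mice) and Psmd3 (0.49 and 0.42).

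Psmd14 (ENSMUSG00000026914, GRCm38 chromosome 2, 61711694 to 61800376, plus strand), the metalloprotease of the regulatory lid that cuts the ubiquitin chain off a substrate, was higher in IP in both genotypes. It had 149, 113, 163 and 114 FPKM in the IP of hM3Dq mice 1, 3, 4 and 5, against 88.4, 63.0, 97.6 and 93.4 FPKM in their inputs. Every hM3Dq IP lies above every hM3Dq input. IP and input did not overlap for 5 members and 14.4% of all genes in hM3Dq mice, and for 0 members and 2.2% of all genes in control mice. Control IP had 99.8, 123 and 159 FPKM at the lowest, median and highest, against 61.4, 80.3 and 102 FPKM in control input. These groups overlap only in that the IP of control mouse 7 lies below the inputs of mice 6 and 7. The mean was 135 ± 25.1 FPKM in hM3Dq IP and 85.6 ± 15.5 FPKM in hM3Dq input (SD, n = 4 each), and 131 ± 21.2 FPKM in control IP and 83.3 ± 14.6 FPKM in control input (SD, n = 7 each).

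The log2 fold change of Psmd14 was 0.65 in hM3Dq mice (1.57-fold, SE 0.135, adjusted p 0.0164 in limma, with IP above input in 4 of 4 mice). In control mice it was 0.65 (1.57-fold, SE 0.152, adjusted p 0.0309 in limma, with IP above input in 6 of 7 mice). By mouse, the log2 difference was 0.74, 0.84, 0.73 and 0.28 in hM3Dq mice 1, 3, 4 and 5, and 0.99, 0.64, 0.98, 0.60, 1.08, 0.26 and -0.02 in control mice 1 to 7. The difference between genotypes was 0.00 (95% interval -0.48 to 0.48, limma adjusted p 1.00). The size was stable but the call was not: among the alternatives it stayed at 0.59 to 0.77 in hM3Dq mice and 0.55 to 0.76 in control mice, and was called in 7 of 13 and in 9 of 17 of them. Without hM3Dq mouse 1, 3 or 4 the limma adjusted p was 0.0633, 0.0782 and 0.0647, and without control mouse 1, 2, 3, 4 or 5 it was 0.0593, 0.0831, 0.0887, 0.0810 and 0.0545.

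**Figure D3:**
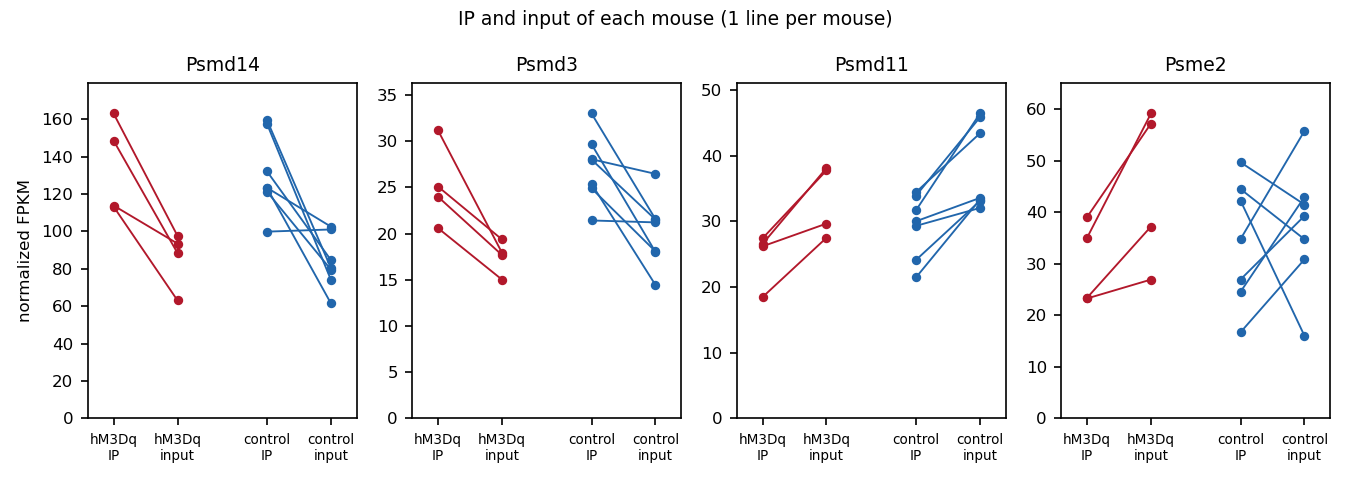
Normalized FPKM of Psmd14, Psmd3, Psmd11 and Psme2, with IP left of input and 1 line per mouse, for hM3Dq mice (red, n = 4) and control mice (blue, n = 7); each vertical axis starts at 0. Lines of Psmd14 run down to input in 4 of 4 hM3Dq and 6 of 7 control mice, and lines of Psme2 run up to input in 4 of 4 hM3Dq mice.

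The PA28 beta subunit gene Psme2 (ENSMUSG00000079197, GRCm38 chromosome 14, 55587441 to 55591113, minus strand) was the member that fell in hM3Dq mice, and it was not called in control mice. Psme2 had 39.1, 23.3, 35.0 and 23.4 FPKM in hM3Dq IP, against 57.2, 26.9, 59.2 and 37.2 FPKM in hM3Dq input. Each hM3Dq mouse had less in IP than in input, although the groups overlap. Control IP had 16.7, 34.8 and 49.7 FPKM at the lowest, median and highest, against 16.0, 39.3 and 55.8 FPKM in control input. The log2 fold change was -0.53 in hM3Dq mice (SE 0.148, adjusted p 0.0491 in limma, with IP below input in 4 of 4 mice) and -0.13 in control mice (SE 0.249, adjusted p 0.830 in limma, with IP below input in 4 of 7 mice). Between genotypes the difference was -0.41 (95% interval -1.19 to 0.37), so a difference in response was not shown. The hM3Dq call rests on every mouse: leaving out mouse 1, 3, 4 or 5 gave limma adjusted p values of 0.135, 0.0612, 0.150 and 0.143, and 4 of 13 alternatives kept it. Its partner Psme1 had -0.20 in hM3Dq mice and -0.06 in control mice, and the nuclear activator Psme3 had -0.32 and -0.28, none of them called. The interferon and MHC class I genes, with which Psme1 and Psme2 are induced, gave 0 calls of 5 tested in both genotypes, with medians of -0.50 in hM3Dq mice and 0.29 in control mice. They summed to 31.7 to 56.3 FPKM in hM3Dq IP and 51.0 to 109 FPKM in control IP, against 42.5 to 85.9 FPKM in hM3Dq input and 54.9 to 107 FPKM in control input, and their part in the Psme2 values was not tested.

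Among the other regulatory subunits none passed the adjusted threshold. Psmd3 had 24.0, 20.6, 31.2 and 25.1 FPKM in hM3Dq IP, against 17.7, 15.0, 17.9 and 19.4 FPKM in hM3Dq input. In control mice Psmd3 had 21.4, 28.0 and 33.0 FPKM at the lowest, median and highest in IP, against 14.4, 21.2 and 26.5 FPKM in input. Exons of Psmd3 overlap the opposite-strand gene Gm12356. The hM3Dq groups of Psmd3 do not overlap and IP exceeded input in all 11 mice, with log2 fold changes of 0.49 (limma adjusted p 0.0784) in hM3Dq mice and 0.42 (limma adjusted p 0.173) in control mice. Psmd11, another scaffold subunit of the lid, had 18.5, 26.2, 27.4 and 26.5 FPKM in hM3Dq IP, against 27.5, 29.6, 37.7 and 38.1 FPKM in hM3Dq input. Control mice had 21.4, 30.0 and 34.4 FPKM of Psmd11 at the lowest, median and highest in IP, against 32.0, 33.6 and 46.4 FPKM in input. Every hM3Dq IP of Psmd11 lies below every hM3Dq input, and IP was below input in all 11 mice, with log2 fold changes of -0.42 (limma adjusted p 0.103) in hM3Dq mice and -0.37 (limma adjusted p 0.161) in control mice. Being on the same side in every mouse is common at these group sizes: 13 of 44 members and 33.4% of all genes were in hM3Dq mice, and 3 of 45 members and 8.47% of all genes were in control mice. Among the ATPases, Psmc4 had 0.46 in hM3Dq mice and 0.50 in control mice, while Psmc5 had -0.40 and -0.23. The alpha subunits stayed within -0.23 to 0.21 in hM3Dq mice and -0.25 to 0.27 in control mice.

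The catalytic beta genes were not called either. Psmb5 had log2 fold changes of 0.21 in hM3Dq mice and 0.43 in control mice (limma adjusted p 0.477 and 0.135). Psmb6 had -0.19 and 0.16, and Psmb7 -0.01 and 0.10, in hM3Dq and control mice. Of the immunoproteasome genes, Psmb10 had -0.23 in hM3Dq mice and -0.10 in control mice, and Psmb8 had 0.11 and 0.10. Psmb9 was tested in control mice only, at -0.65 (limma adjusted p 0.411). Among the chaperones, Psmg1 had -0.32 (SE 0.224) in hM3Dq mice and 0.60 (SE 0.443) in control mice, neither called.

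The values of the members were set side by side between hM3Dq and control mice, which share no library. Over the 44 members tested in both, Pearson's r between the log2 fold changes was 0.46 and Spearman's rho 0.44, and 31 (70.5%) had the same sign, against 70.1% of all genes tested in both. For the 31 core and regulatory subunits r was 0.62, and for the 12891 genes tested in both it was 0.69. These are descriptions across genes, which are not independent and share their libraries within a genotype.

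Markers of some cell types differed between IP and input. Of 7 neuronal genes tested, 4 rose in hM3Dq mice and 3 in control mice, and of 6 oligodendrocyte genes 4 fell in each genotype. Oligodendrocyte genes summed to 308 to 1138 FPKM in hM3Dq IP and 508 to 1076 FPKM in control IP, against 623 to 1649 FPKM in hM3Dq input and 775 to 1568 FPKM in control input. Of 4 erythroid genes 1 rose in hM3Dq mice and 3 in control mice. Of 6 astrocyte genes 0 were called in hM3Dq mice and 1 fell in control mice. Of 8 microglial genes 1 fell in hM3Dq mice and 0 were called in control mice. In hM3Dq mice 0 were called of 1 endothelial, 1 mural and 2 tanycyte genes tested, and in control mice 0 of 2, 2 and 3. With so few tested, this does not show that these cell types were alike in IP and input. The oligodendrocyte precursor gene Pdgfra rose in hM3Dq mice, and the ependymal gene Ccdc153 fell in control mice. Over all genes tested, 10.3% were called in hM3Dq mice and 4.84% in control mice. The part of these markers in the values of Psmd14 and Psme2 was not tested. Of the 70 cytosolic ribosomal protein genes, which like the proteasome encode a large complex with fixed proportions, 63 fell in hM3Dq mice (median -0.96) and 42 in control mice (median -0.79). The difference between the ribosomal and the proteasome genes was not tested.

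Some libraries had the lowest values of their group for many subunits. Summed over the 31 subunits, the mean level was 2666 ± 353 FPKM for hM3Dq IP, 2744 ± 313 FPKM for control IP, 2661 ± 350 FPKM for hM3Dq input and 2593 ± 54.4 FPKM for control input (SD over 4 hM3Dq and 7 control mice). The hM3Dq input 3 library was the lowest of its group for 23 of 31 subunits, hM3Dq IP 3 for 17, hM3Dq IP 1 for 13 and control IP 5 for 14. The same counts over all genes are not given here, so nothing particular to the proteasome genes can be read from them. The median difference of IP and input over the 31 subunits was -0.07, 0.13, 0.05 and 0.04 in hM3Dq mice 1, 3, 4 and 5. In control mice 1 to 7 it was 0.37, 0.04, 0.22, -0.20, -0.18, 0.05 and 0.00, so single control mice leaned in either direction. Over all genes tested the same median lay between 0.01 and 0.06 in every mouse. Without control mice 1, 5 and 6, which each had 1 of the 3 libraries with the most genes at 0, Psmd14 was at 0.55 (limma adjusted p 0.104), and 1 member was called, the ATPase gene Psmc4 at 0.86 (limma adjusted p 0.0384).

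Other genes of the ubiquitin-proteasome pathway, none of them members, include several that rose in IP. The list includes ubiquitin genes, enzymes that attach or remove ubiquitin, shuttles that carry substrates, transcription factors of the proteasome genes, and proteasome proteins without the shared prefix. Of 42 listed names, 38 were tested in each genotype: 9 rose, 1 fell and 28 were not called in hM3Dq mice (median 0.18), and 7 rose, 1 fell and 30 were not called in control mice (median 0.25). The shares that rose were 23.7% in hM3Dq mice, against 5.41% of all genes, and 18.4% in control mice, against 2.23% of all genes. All 7 that rose in control mice also rose in hM3Dq mice. These counts were added after seeing the data and depend on the fit: in hM3Dq mice 3 rose without the trend, 4 without a filter, and 5 without mouse 1 or without mouse 3, and in control mice 4 rose without the trend and 11 in 1 fit of all libraries. The ubiquitin-activating enzyme Uba1 averaged 110.1 ± 9.81 FPKM in hM3Dq IP and 61.8 ± 9.86 FPKM in hM3Dq input (SD, n = 4 each), with a log2 fold change of 0.83 (limma adjusted p 0.00417). In control mice Uba1 averaged 112 ± 27.6 FPKM in IP and 57.5 ± 11.5 FPKM in input (SD, n = 7 each), a log2 fold change of 0.93 (limma adjusted p 0.00174). IP exceeded input in every mouse for Uba1, for Zfand5, a proteasome-binding zinc finger protein (0.89 in hM3Dq mice and 0.98 in control mice), and for Ubqln2, a shuttle for ubiquitinated proteins (0.80 and 0.92). The same held for Vcp, the segregase that extracts substrates (0.70 and 0.75), for the ubiquitin ligase gene Ube3a (1.12 and 0.88), and for Akirin2, known for carrying proteasomes into the nucleus (0.86 and 0.67).

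The gene that fell was Rps27a, which encodes ubiquitin fused to a ribosomal protein, at -0.96 in hM3Dq mice and -0.81 in control mice (limma adjusted p 0.00203 and 0.0248). Named after their values were seen, the other genes that rose were the proteasome-bound deubiquitinase gene Usp14 in both genotypes, and the shuttle gene Rad23b and the ligase gene Ube3c in hM3Dq mice. Also named after their values were seen, 3 genes of proteasome proteins that lack the shared prefix were not called. The lid subunit gene Sem1 had -0.38 in hM3Dq mice and -0.27 in control mice, the ubiquitin receptor gene Adrm1 -0.10 and 0.00, and the maturation factor gene Pomp -0.03 and 0.37. The longest annotated transcript had a median of 1851 bases in the 44 members tested in hM3Dq mice and 3515 bases in the 38 pathway genes. Spearman's rho between transcript length and log2 fold change was 0.18 over all genes tested in hM3Dq mice and 0.00352 in control mice, and over the 38 pathway genes alone it was 0.37 in hM3Dq mice and 0.31 in control mice, given as descriptions across genes. The part of length in the pathway genes' values was not tested.

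**Figure D4:**
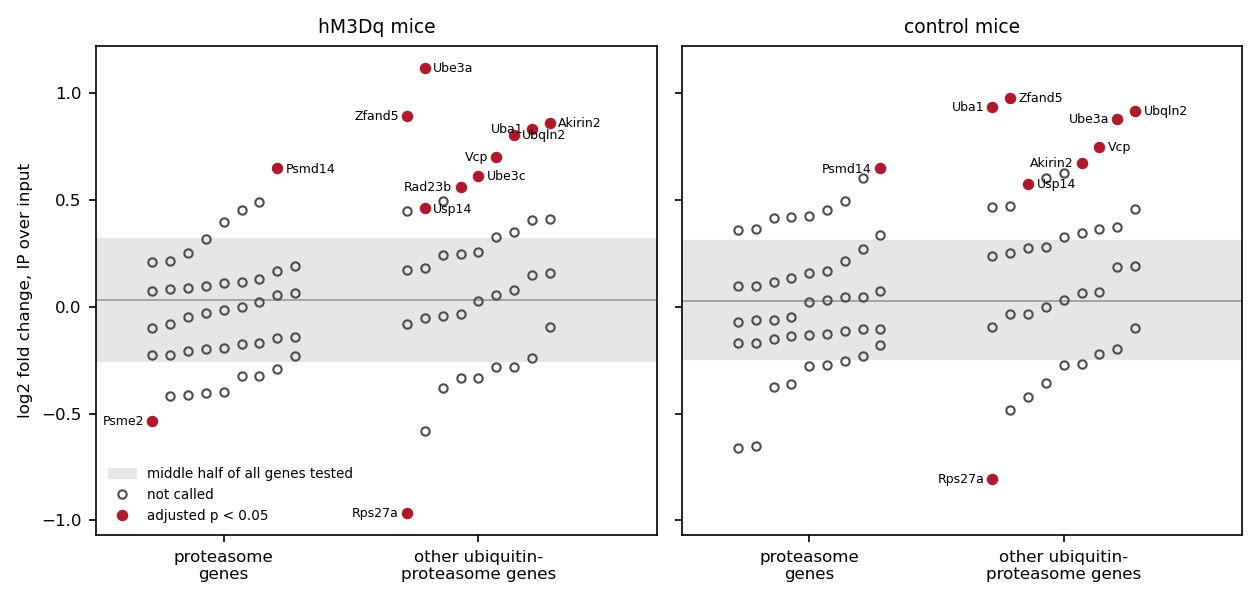
Log2 fold change of IP over input for the proteasome genes and for 38 other genes of the ubiquitin-proteasome pathway in hM3Dq mice (left, n = 4) and control mice (right, n = 7); filled points passed an adjusted p of 0.05, and the grey band spans the quartiles of all genes tested. Filled points above the band number 9 and 7 among the pathway genes, and 1 in each genotype among the proteasome genes.

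Whether the proteasome genes differed between hM3Dq and control mice, all given CNO, was tested in IP and in input. No hM3Dq mice without CNO were included, so carrying the receptor and activating it cannot be told apart. In IP, 0 of 44 members were called, as were 0.00739% of 13531 genes; before adjustment 0 members and 5.23% of all genes were under 0.05 in limma. In input, 0 of 45 were called, as were 0% of 13512 genes (limma); before adjustment 1 member and 4.54% of all genes were under 0.05. The median log2 fold change of the members was -0.02 in IP and 0.04 in input, against -0.01 and -0.02 over all genes. For no member did the hM3Dq and control values lie apart without overlap, which 0.902% of genes did in IP and 0.555% in input. The member with the low p in input was the catalytic gene Psmb7, whose values are given above, at 0.36 (95% interval 0.08 to 0.64, unadjusted p 0.0158 and adjusted p 1.00 in limma), and exons of Psmb7 overlap the opposite-strand gene Nek6. In IP, the 2 lowest members were Psmb8 at -0.52 (95% interval -1.16 to 0.12) and Psme1 at -0.35 (-0.75 to 0.05), and the 2 highest were Psmc3ip at 0.36 (-0.28 to 1.00) and Psmb7 at 0.24 (-0.18 to 0.67). In input, the chaperone gene Psmg1 was highest at 0.92 (-0.21 to 2.05), and Psmb8 and Psmb9 were lowest at -0.54 (-1.55 to 0.48) and -0.51 (-1.91 to 0.89). Of the interferon and MHC class I genes, given above by group, 0 of 5 were called in IP (median -0.70) and 0 of 5 in input (median 0.02), and their part in the Psmb8 values was not tested. Of the genes listed for arcuate neurons, 0 of 6 were called, with medians of -0.72 in IP and -0.54 in input. For the lateral hypothalamus 0 of 2 were called, with medians of -0.62 in IP and -1.03 in input. The part of these regional genes in the members' values was not tested. The median SE of a member was 0.178 in IP and 0.198 in input. A p that misses the threshold at this precision does not show that the genotypes are alike.

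**Figure D5:**
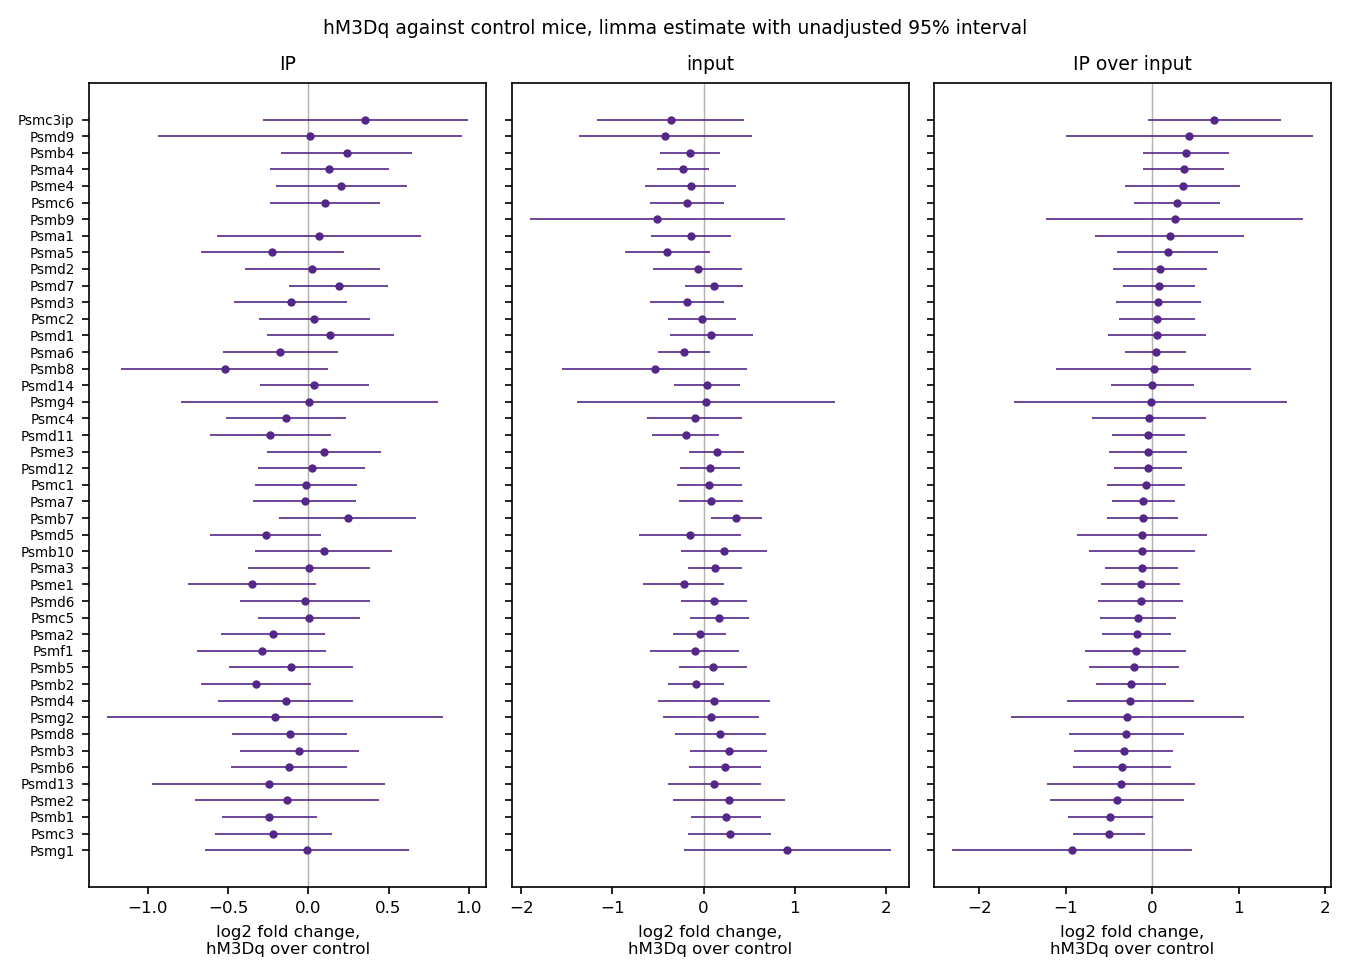
Log2 fold change of hM3Dq over control mice for each member tested (4 against 7 mice) in IP, in input and in the difference of IP and input, as limma estimates with unadjusted 95% intervals; members are ordered by the right panel. Intervals exclude 0 for Psmb7 in input and Psmc3 in IP over input, and no member passed adjustment over all genes.

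The response to the genotype was also tested on the IP over input difference of each mouse. Of 45 members 0 were called, as were 0% of 14582 genes (limma); before adjustment 1 member and 3.07% of all genes were under 0.05. The median over members was -0.08, against 0.01 over all genes. The member with the low p was Psmc3, an ATPase of the regulatory base. It had 124, 90.4, 102 and 84.0 FPKM in the IP of hM3Dq mice 1, 3, 4 and 5, against 180.1, 89.7, 95.1 and 94.1 FPKM in their inputs. In control mice it had 87.1, 119 and 144 FPKM at the lowest, median and highest in IP, against 56.1, 90.9 and 115 FPKM in input. The 4 groups overlap, and hM3Dq input 1 is the highest of all libraries. By mouse, the log2 difference of Psmc3 was -0.53, 0.01, 0.10 and -0.16 in hM3Dq mice, and 0.57, 0.32, 0.64, 0.62, -0.08, 0.29 and 0.15 in control mice 1 to 7. The difference between genotypes was -0.50 (95% interval -0.92 to -0.09, unadjusted p 0.0211 and adjusted p 0.999 in limma). Exons of Psmc3 overlap the opposite-strand gene Slc39a13, so their reads cannot be told apart without knowledge of strand.

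Psmc3ip, the recombination cofactor, was the 1 member whose IP and input differences did not overlap between genotypes, as in 0.405% of all genes. It had 4.14, 3.89, 6.90 and 2.50 FPKM in hM3Dq IP, against 4.82, 4.28, 6.42 and 1.63 FPKM in hM3Dq input. In control mice it had 1.47, 3.51 and 5.11 FPKM at the lowest, median and highest in IP, against 2.86, 4.59 and 10.4 FPKM in input. Exons of Psmc3ip overlap the opposite-strand gene Mlx, so their reads cannot be told apart without knowledge of strand. All of these levels are low and the groups overlap, but every control mouse had less in IP than in input. The log2 fold change of IP over input was 0.05 in hM3Dq mice and -0.66 in control mice (limma adjusted p 0.175), a difference of 0.72 (95% interval -0.05 to 1.48, limma adjusted p 0.999). The authors' deposited table marks Psmc3 (p 0.0129, log2 fold change -0.51) and Psmc3ip (p 0.0376, log2 fold change 0.88) as significant, 2 of 47 members, and 2.82% of its 17440 rows. After Benjamini-Hochberg adjustment of the p-values in the authors' deposited table, both were at 0.863 and 0 of its rows were under 0.05. The chaperone genes Psmg1 at -0.93 (95% interval -2.32 to 0.46) and Psmd9 at 0.43 (SE 0.672) had wide intervals that include 0.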

How the data were processed

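Paired IP and input RNA of 11 mice was sequenced. The authors deposited 1 table of normalized FPKM per gene and library, a ratio of IP over input FPKM per mouse, and an unadjusted p-value with a log2 fold change per gene. The submitters' processing notes list the tools StringTie 1.3.4d and HISAT2 2.1.0 and the build GRCm38.p6. The normalization and the strand setting are not given in the sources used here. The deposited ratio equals IP over input FPKM within 0.1%. Depth is unknown, and relative depth was read from the spacing of low values.

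Values were analysed here as log2(FPKM + 1). Rows that reached 1 FPKM in 4 or more libraries of a comparison were fitted with limma 3.58.1 (lmFit, eBayes with trend, two-sided) in R 4.3.3 over the whole table, with Benjamini-Hochberg adjustment. A gene was called at an adjusted p under 0.05. IP and input of a mouse come from 1 homogenate, so the mouse was a block in both comparisons of IP with input. Mouse numbers shared by genotypes name different animals and paired nothing. Fold changes are on the log2(FPKM + 1) scale. The scripts were tested on simulated data. Positions and exon overlaps came from GENCODE M21, which held all 46 identifiers, and promoters from RefSeq. Python 3.11.15, pandas 2.3.3, scipy 1.17.1 and matplotlib 3.10.9 were used.

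Values of each hM3Dq library, and the lowest, median and highest control value, are given for the catalytic beta genes and their immunoproteasome counterparts, for members called in any comparison, and for the 2 members with the largest and the 2 with the smallest log2 fold change in each of the 5 comparisons. Pathway genes were named where called, at most 6 per comparison by adjusted p. Members and lists were chosen with earlier results of these data known. Alternatives changed the pseudocount, the filter, the trend, the scaling, the set of libraries fitted and the block, and left out mice.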

Additional observations from a re-analysis of the deposited data

Results flagged for a closer look

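The values of 15 members were examined within each group, in 60 groups of 4 or 7 libraries, for a library set far apart from the rest of its group. In all, 6 were found. Some of the 15 members were chosen by calls or fold changes in these same values. The usual rate of about 1 group in 20 therefore need not hold, and no excess can be read from the count. In hM3Dq input 1, 3 genes were the highest of their group by a wide gap: Psmc3 at 180.1 FPKM, Psmg1 at 13.8 FPKM and Psmb9 at 6.56 FPKM. Psmb9 at 9.89 FPKM in control input 1 was likewise far above the other control inputs. Psmb8 stood at 3.01 FPKM in hM3Dq input 3, above the other hM3Dq inputs, and Psmd11 was far below the other hM3Dq IPs in hM3Dq IP 1, at 18.5 FPKM.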

How the results depend on the processing

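Counts of members called between genotypes stayed at 0 under every alternative run, in IP, in input and in IP over input, the replicate block on the shared mouse numbers included. Between genotypes the median of the members ran from -0.114 to 0.032 in IP and from -0.049 to 0.143 in input. In IP over input it ran from -0.127 to -0.015. Between IP and input it ran from -0.065 to 0.014 in hM3Dq mice and from -0.043 to 0.081 in control mice. Only the median of IP over input between genotypes kept its sign. The count of members called between IP and input did change. In hM3Dq mice it was 2, and it was 1 with log2(FPKM + 0.1), 0 without a filter, 0 without the trend, 1 in 1 fit of all libraries, 0 with no replicate block (without pairing by mouse) and 0 to 1 when leaving out 1 mouse. In control mice it was 1, and it was 0 without a filter, 0 without the trend, 3 in 1 fit of all libraries (Psmd14, Psmd6 and Psmd3), 1 with no replicate block and 0 to 1 when leaving out 1 mouse (0 without mouse 1, 2, 3 or 4, and Psmd6 alone without mouse 5). Pathway genes that rose numbered 9 in hM3Dq mice, with 4 without a filter, 3 without the trend and 5 to 6 when leaving out 1 mouse. In control mice they numbered 7, with 4 without the trend, 11 in 1 fit of all libraries, 5 to 9 when leaving out 1 mouse and 6 without control mice 1, 5 and 6. The pathway counts were added as a result after seeing the data. The cause of these changes was not tested. Low genes such as Psmb8, Psmb9, Psmd10 and Psmg4 are limited by depth, which is known only in relative terms.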
